A study of Mus musculus with 2 samples.

Results

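Matricellular proteins are secreted into the extracellular matrix, where they bind collagens, growth factors and cell surface receptors and so tune how cells read the matrix, rather than bearing load themselves. The 10 genes described here are Ccn1, Ccn2, Ccn3, Ccn5, Thbs1, Thbs2, Postn, Tnc, Sparc and Fn1, taken by name from the 29417 genes of the table. They cover the CCN family, thrombospondins, periostin, tenascin-C, osteonectin and fibronectin. In fat, matrix of this kind is laid down around adipocytes and vessels and builds up when fat becomes fibrotic.

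The cells were the stromal vascular fraction, the non-adipocyte cells left after digestion, of epididymal white fat from wild-type male C57BL/6J mice. Animals had been on a high-fat diet for 8 or 16 weeks or on a standard diet for 16 weeks. The suspensions were marked with hashtag antibodies, pooled and run as 1 BD Rhapsody TAS-Seq library with 1 matching hashtag library. The diet and the number of mice behind a hashtag could not be read from the labels. The 9 hashtag populations thus stand as unassigned samples, with no comparison of diets and no test.

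After filtering, 10327 cells remained, with 5169 to 736281 reads per cell (median 36709) and 811 to 1433 cells per hashtag population. Clusters made without the 10 genes were named from marker lists. The mural-like class (pericytes and smooth muscle) held 293 cells, the mesothelial-like class 2.93% of all cells, the endothelial-like class 1008 cells, the lymphatic endothelial-like class 67, the fibroblast-like class 2691 (26.1%) and the macrophage-like class 3372 (32.7%). Epithelial-like, B cell-like and mature dendritic cell-like classes held 68, 134 and 33 cells, and 6 clusters with 22.8% of the cells stayed unnamed. Levels (CPM) are the reads of a gene summed over a class, scaled so that the class sums to 1000000. They are not divided by gene length, so a level is compared between cells for 1 gene and not between genes. Intervals on CPM are exact Poisson intervals, cover counting error only and are too narrow, because reads of 1 molecule are not independent.

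The low end of the table differs between the 10 genes. Ccn1, Ccn3, Thbs2 and Tnc have values down to 1 read per cell. The lowest value above 0 is 6 reads for Ccn2, Ccn5 and Thbs1, 10 for Postn, 16 for Fn1 and 18 for Sparc, and these 6 lie among 437 genes at the head of the table that all lack values below 5. A cell listed at 0 may therefore hold reads below that value. The name of the deposited table carries the term DBEC, a count correction of the BD Rhapsody software; how it was applied is not given in the sources used here, and its part in the missing low values was not tested. Ratios for them are also given with each 0 set to 1 read less than that lowest value, called here gaps filled.

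Fibroblast-like cells exceeded macrophage-like cells in all 10 genes, in each of the 9 hashtag populations. Of the 9 genes that reached 20 CPM in 1 of the 2 classes, all 9 were at least 2-fold higher, where 21.8% of the 7767 genes with that level were 2-fold higher and 17.4% were 2-fold lower. Tnc stayed below 20 CPM in both classes. The median log2 ratio was 5.06 over those 9 genes and 0.0058 over all genes at that level. With gaps filled in both classes the same 9 calls stood, with smaller ratios for the genes that lack low values. With gaps filled in macrophage-like cells only, 8 calls stood: Ccn5 had a ratio of 1.03 and lost its call, and Ccn2 had a ratio of 3.07.

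**Figure D1:**
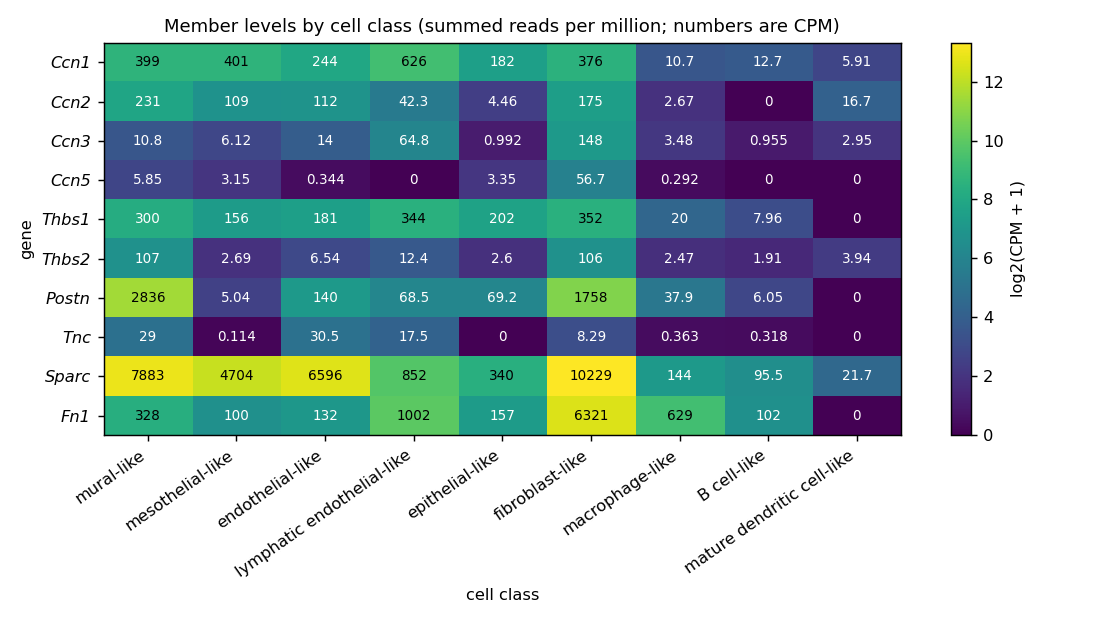
Levels of the 10 genes (rows) in the 9 named classes (columns); colour gives log2(CPM + 1) and the printed numbers are CPM of summed reads. Fn1 reached 6321 CPM in fibroblast-like cells and stayed between 100 and 1002 CPM in the mural-, mesothelial-, endothelial-, lymphatic endothelial- and macrophage-like columns, while Ccn1 lay between 244 and 626 CPM in every stromal and vascular column.

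Among the CCN genes, Ccn1 (CYR61) is a secreted integrin ligand whose gene responds within minutes to growth factors and stretch. It had 376 CPM in fibroblast-like cells (95% interval 373 to 379) and 10.7 CPM in macrophage-like cells. Its level was 626 CPM in lymphatic endothelial-like cells, 401 in mesothelial-like, 399 in mural-like and 244 in endothelial-like cells. The mesothelial-, mural- and fibroblast-like levels lay within 1.07-fold of each other, and their ranges over hashtag populations overlapped.

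Ccn2 (CTGF), a profibrotic member of the family and a classical target of TGF-beta and YAP, had 231 CPM in mural-like cells, 175 in fibroblast-like, 112 in endothelial-like and 109 in mesothelial-like cells. Macrophage-like cells held 2.67 CPM, a 65.6-fold ratio of fibroblast- over macrophage-like cells that became 4.18 with gaps filled. Ccn3 (NOV), which opposes Ccn2 in several fibrosis models, was highest in fibroblast-like cells at 148 CPM, against 3.48 CPM in macrophage-like cells. Lymphatic endothelial-like cells followed at 64.8 CPM and endothelial-like cells at 13.97 CPM. Ccn5 (WISP2), the member that lacks the C-terminal domain of the family, had 56.7 CPM in fibroblast-like cells and 0.292 CPM in macrophage-like cells. No read of Ccn5 was found in lymphatic endothelial-like or B cell-like cells, and with gaps filled its ratio of fibroblast- over macrophage-like cells was 2.46.

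Thbs1 (thrombospondin-1), which can activate latent TGF-beta and binds CD36 and CD47, had 352 CPM in fibroblast-like cells and 20.05 CPM in macrophage-like cells, a ratio of 17.6, or 5.72 with gaps filled. Lymphatic endothelial-like cells (344 CPM) and mural-like cells (300 CPM) lay within 1.18-fold of the fibroblast-like level. Thbs2, a relative involved in collagen fibril assembly, had 106 CPM in fibroblast-like cells and 2.47 CPM in macrophage-like cells. Mural-like cells had 107 CPM, while endothelial-like cells had 6.54 and mesothelial-like cells 2.69 CPM. The pair thus differed in endothelium and mesothelium, where Thbs1 still held 181 and 156 CPM.

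Postn (periostin), which helps cross-link collagen, had 2836 CPM in mural-like cells and 1758 CPM in fibroblast-like cells, and was higher in the mural-like cells of 8 of 9 hashtag populations. Endothelial-like cells held 140 CPM and mesothelial-like cells 5.04 CPM. Tnc (tenascin-C), a large glycoprotein that appears on injury, was low throughout: 30.5 CPM in endothelial-like, 29.0 in mural-like, 17.5 in lymphatic endothelial-like and 8.29 in fibroblast-like cells. Sparc (osteonectin), a collagen-binding protein, had 7883 CPM in mural-like, 4704 in mesothelial-like, 6596 in endothelial-like and 10229 in fibroblast-like cells, and 144 CPM in macrophage-like cells. Fn1 (fibronectin), the scaffold on which collagen fibrils assemble, was the member with the smallest ratio of fibroblast- over macrophage-like cells (10.0) in the deposited values, but with gaps filled Ccn5, Ccn2 and Thbs1 had smaller ratios than its 8.67. It had 6321 CPM in fibroblast-like cells and 629 CPM in macrophage-like cells.

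Shares of cells with a read gave a view that does not rest on the few richest cells. With each cell thinned to 5000 reads, Fn1 was seen in 17.1% of mural-like cells, in 86.6% of fibroblast-like cells (exact binomial 95% interval 85.2 to 87.9) and in 32.7% of macrophage-like cells (31.1 to 34.3). In the unnamed cluster led by Gzma and Nkg7, genes of cytotoxic lymphocytes that should lack Fn1, the share was 2.42% at a median of 15455 reads per cell. Postn was seen in 62.1% of mural-like, 54.5% of fibroblast-like and 1.99% of macrophage-like cells, and in 0.808% of the Gzma and Nkg7 cluster. Ccn1 was seen in 48.6% of fibroblast-like and 3.97% of macrophage-like cells, and the macrophage-like share was no higher than the 4.44% of the Gzma and Nkg7 cluster. Without thinning, the Ccn1 shares were 70.3% and 31.8%, at a median of 52417 reads per fibroblast-like cell and 71504 per macrophage-like cell. Sparc reached 9.10% of macrophage-like cells, against 3.43% of the Gzma and Nkg7 cluster. Values below 16 reads for Fn1, 18 for Sparc and 10 for Postn were absent before thinning. Shares of these 3 genes thus still depend on reads per cell and are not matched for depth between groups.

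Set against fibroblast-like cells, mural-like cells had 1 of the 10 genes 2-fold higher (Tnc, 3.50-fold), 3 lower and 6 within 2-fold. The backgrounds over 8158 genes were 18.5% higher and 11.0% lower. Tnc was higher in the mural-like cells of 6 of 9 hashtag populations, and without thinning 6.14% of mural-like cells had a Tnc read. Ccn3 had 10.8 CPM in mural-like and 148 CPM in fibroblast-like cells, and Fn1 had 328 CPM in mural-like and 6321 CPM in fibroblast-like cells. Both were lower in the mural-like cells of all 9 hashtag populations. Ccn5 had 5.85 CPM in mural-like cells and 56.7 CPM in fibroblast-like cells, but all of its mural reads came from 1 cell and the ratio turned to 1.31 with gaps filled.

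Mesothelial-like cells had none of the 10 genes 2-fold higher than fibroblast-like cells and 7 lower, with backgrounds of 11.1% higher and 10.7% lower over 7559 genes. Postn had 5.04 CPM in mesothelial-like cells and 1758 CPM in fibroblast-like cells, Fn1 100 against 6321 CPM and Thbs2 2.69 against 106 CPM. Ccn1 and Ccn2 were the 2 genes within 2-fold. The calls for Thbs1 and Ccn5 were lost with gaps filled, where their ratios were 0.560 and 0.658. Endothelial-like cells had 1 gene higher (Tnc, 3.67-fold), 5 lower and 4 within 2-fold, with backgrounds of 18.9% and 14.3% over 8127 genes. Tnc was higher in the endothelial-like cells of 7 of 9 hashtag populations. The 5 lower genes were Ccn3, Ccn5, Thbs2, Postn and Fn1, and the endothelial Ccn5 ratio turned to 1.83 with gaps filled.

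The fibroblast-like cells split into 11 subclusters, and 8 of the 10 genes were 2-fold higher in at least 1 of them than in the other fibroblast-like cells, where 19.3% of 8689 genes were. Thbs1 and Sparc were the 2 without such a subcluster. Subclusters are described by leading genes and by the state lists they carry.

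**Figure D2:**
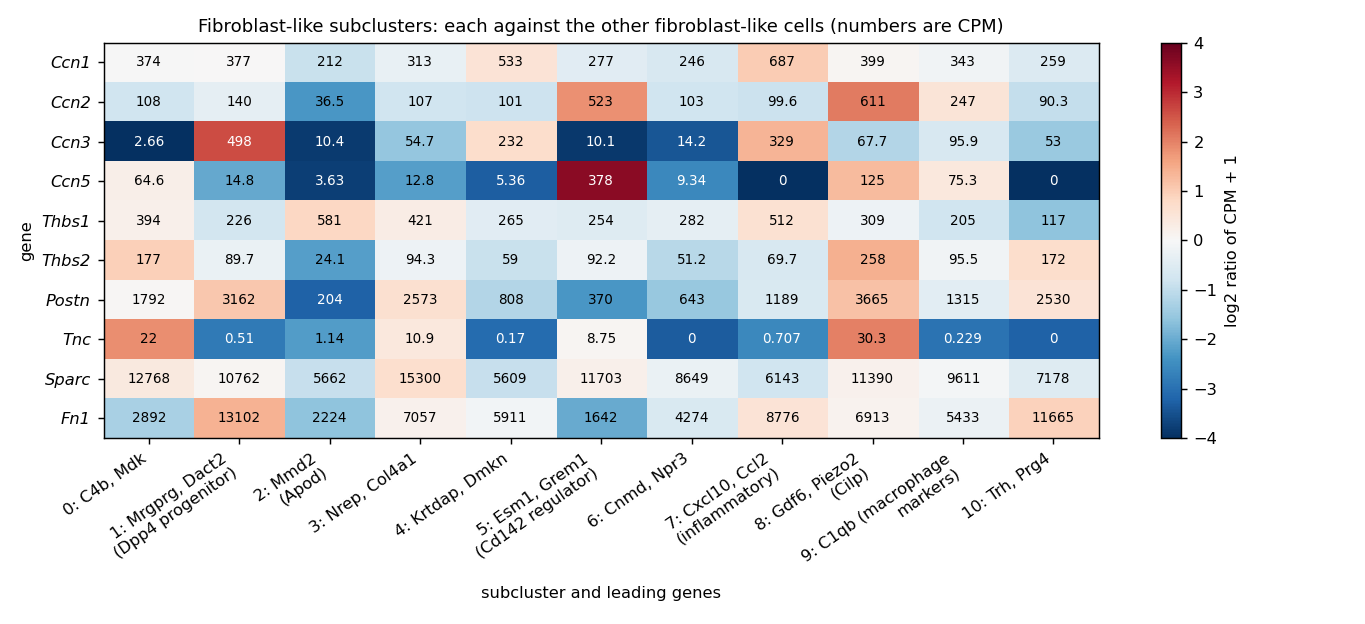
Each of 11 fibroblast-like subclusters against the other fibroblast-like cells, as the log2 ratio of CPM + 1 (colour, limited to 4 either way), with CPM printed in each field. Ccn3 had 498 CPM in subcluster 1, where Ccn5 had 14.8, and Ccn5 had 378 CPM in subcluster 5, where Ccn3 had 10.1. Both had reads in subcluster 8, for example 175 CPM of Ccn3 and 124 CPM of Ccn5 in A0301. Over the 11 subclusters the Pearson r of the 2 genes was -0.378.

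Subcluster 1 (354 cells, led by Mrgprg and Dact2) carried 5 of 6 Dpp4 progenitor markers, the state of interstitial cells that can give rise to preadipocytes. Of all genes, 2.98% were 2-fold higher there. Ccn3 had 498 CPM, a ratio of 6.15, and it was seen in 87.0% of those cells. Fn1 had 13102 CPM, a ratio of 2.61, and Postn 3162 CPM, a ratio of 2.12. In this subcluster Fn1 lay between 9041 and 16367 CPM in the 9 hashtag populations (14 to 65 cells each). Subcluster 7 (209 cells, led by Cxcl10 and Ccl2), which carried 5 of 5 inflammatory markers, had 687 CPM of Ccn1 (ratio 2.01) and 329 CPM of Ccn3 (ratio 2.57), where 2.65% of genes were 2-fold higher. This subcluster also carried 4 of 6 Dpp4 progenitor markers, and its leading genes included Ifit1, Rsad2, Irf7, Ifit3 and Isg15.

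Subcluster 5 (248 cells, led by Esm1 and Grem1) carried 4 of 4 markers of the Cd142 state, described as regulators of adipogenesis. Ccn5 had 378 CPM there, a ratio of 12.6 or 4.05 with gaps filled, and 254 to 550 CPM over the 9 hashtag populations. Ccn2 had 523 CPM, a ratio of 3.59, and 3.30% of all genes were 2-fold higher in this subcluster, while Fn1 had 1642 CPM and Postn 370 CPM, both lower than in the other fibroblast-like cells. Subcluster 8 (130 cells, led by Gdf6 and Piezo2), with 3 of 3 Cilp state markers, was 2-fold higher in 5 of the genes, against 1.66% of all genes. Ccn2 had 611 CPM (ratio 4.28), Thbs2 258 CPM (2.73), Postn 3665 CPM (2.27), Ccn5 125 CPM (2.41) and Tnc 30.3 CPM (4.54). The Ccn5 ratio was 1.31 with gaps filled, and 1 cell held 51% of the Tnc reads. Ccn2 was above the other fibroblast-like cells in 9 of 9 hashtag populations, Postn in 8 and Thbs2 in 7, but Ccn5 in 5 and Tnc in 4. Tnc was also above the other fibroblast-like cells in subcluster 0 (C4b and Mdk, 465 cells) at 22.0 CPM, though above them in 5 of 9 populations. In this subcluster 3.07% of genes were 2-fold higher.

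Subcluster 2 (334 cells), with 3 of 3 Apod state markers, was the other extreme: 6 genes were 2-fold lower there, against 3.78% of all genes. Postn had 204 CPM in it, Ccn2 36.5 CPM and Thbs2 24.1 CPM, while Thbs1 had 581 CPM, within 2-fold of the rest. The 6 lower genes were Ccn2, Ccn3, Ccn5, Thbs2, Postn and Fn1. Ccn2, Ccn5, Postn and Fn1 lack low values, and their calls here are given without gaps filled. The median was 39425 reads per cell in subcluster 2, against 52417 in the fibroblast-like class, so these calls may depend on depth. Subcluster 3 (333 cells, led by Nrep and Col4a1) held the highest Sparc level, 15300 CPM, a ratio of 1.61. Subcluster 9 (43 cells) carried 9 of 10 macrophage markers, and none of the 10 genes was called there. Across the 11 subclusters, log2(CPM + 1) of Thbs2 and Postn had a Pearson r of 0.791, a description over 11 points that share 1 library. Ccn1 and Ccn2 had r = 0.151 there, against 0.863 over all 24 clusters.

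**Figure D3:**
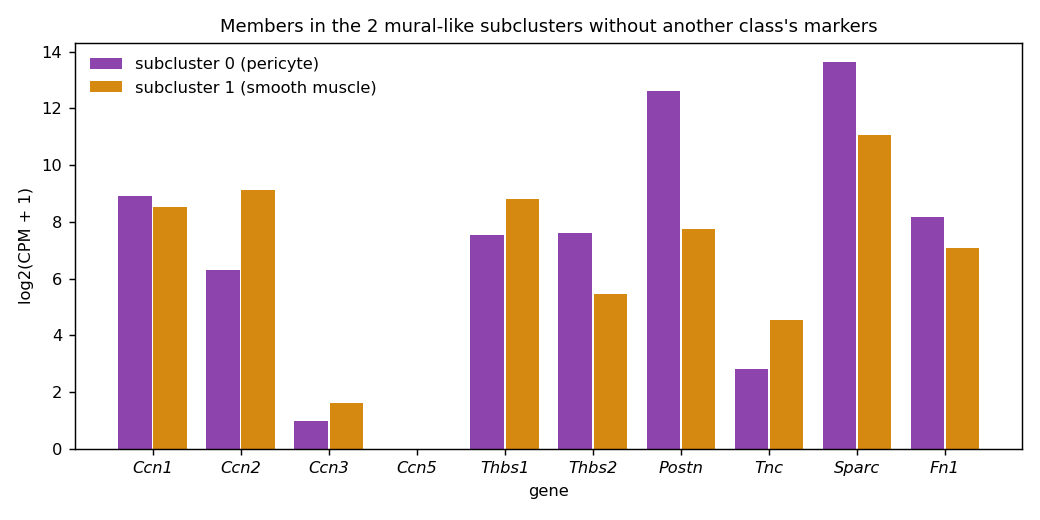
Levels of the 10 genes, as log2(CPM + 1), in mural-like subcluster 0 (134 cells, with 3 of 4 pericyte markers) and subcluster 1 (75 cells, with 4 of 5 smooth muscle markers). Postn had 6243 CPM in subcluster 0 and 213 CPM in subcluster 1, whereas Ccn2 had 77.2 CPM in subcluster 0 and 552 CPM in subcluster 1; Ccn5 had no read in either.

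Inside the mural-like class, different genes were called in the subclusters with pericyte and with smooth muscle markers. In subcluster 0, with 3 of 4 pericyte markers, Postn was 7.38-fold above the other mural-like cells, Thbs2 had 192 CPM (3.37-fold) and Sparc 12722 CPM (2.52-fold). In subcluster 1, with 4 of 5 smooth muscle markers, Ccn2 was 5.34-fold above the rest, or 2.53-fold with gaps filled, and Thbs1 had 451 CPM, within 2-fold. The backgrounds were 19.1% of genes 2-fold higher in subcluster 0 and 8.84% in subcluster 1. The 40 cells of subcluster 2 carried 6 of 8 fibroblast markers and had 162 CPM of Tnc, against 6.03 CPM in subcluster 0 and 22.3 CPM in subcluster 1. Tnc was thus highest in the mural-like cells with fibroblast markers, while the fibroblast-like class itself held 8.29 CPM. The part of these cells in the mural Tnc call was not tested. In endothelial-like cells Tnc was highest, at 117 CPM, in a subcluster of 47 cells that carried 6 of 6 cycling markers and 4 of 5 erythrocyte markers, and that group's part was likewise not tested.

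Upstream sequence was read for the genes whose levels moved together in pericytes and Cilp-state fibroblasts (Postn and Thbs2) and for Ccn1, as a textbook YAP target. The RefSeq table (GRCm38.p6) matched 5 of the 10 genes: Ccn1, Thbs2, Postn, Tnc and Sparc. Each sequence is the 250 bases before a start site, 5′ to 3′ on the gene's strand, with capitals for a TEAD match (GGAATG) or a TATA match (TATAAA), on either strand; AP-1 (TGANTCA) and CArG boxes were searched too.
Ccn1, chr3:145649986-145650235, minus strand: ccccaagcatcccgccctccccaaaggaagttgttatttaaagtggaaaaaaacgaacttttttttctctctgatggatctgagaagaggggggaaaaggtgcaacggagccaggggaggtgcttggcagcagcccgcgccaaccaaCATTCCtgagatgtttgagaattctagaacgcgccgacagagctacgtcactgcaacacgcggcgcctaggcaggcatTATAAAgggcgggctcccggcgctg
Postn, chr3:54360857-54361106, plus strand: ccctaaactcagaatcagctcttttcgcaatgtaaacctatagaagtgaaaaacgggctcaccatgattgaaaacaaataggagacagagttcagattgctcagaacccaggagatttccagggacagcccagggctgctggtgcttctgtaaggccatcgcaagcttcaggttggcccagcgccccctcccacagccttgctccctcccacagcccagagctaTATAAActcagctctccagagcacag
Thbs2, chr17:14694263-14694512, minus strand: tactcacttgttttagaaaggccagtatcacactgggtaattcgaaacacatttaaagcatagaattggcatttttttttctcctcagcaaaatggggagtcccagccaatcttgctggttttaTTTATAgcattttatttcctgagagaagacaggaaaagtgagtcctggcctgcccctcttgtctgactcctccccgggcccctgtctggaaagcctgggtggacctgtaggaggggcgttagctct
The Ccn1 sequence held 1 TEAD match, which begins 103 bases before the start, and 1 TATA match at 25 bases. Of 32851 promoters of this length, 12.6% held the TEAD letters, 12.4% the TATA letters, 6.75% the AP-1 letters and 1.47% a CArG box. The printed Postn sequence and that of Thbs2 shared no match other than TATA letters, at 26 and 126 bases. The table lists a second Postn start upstream (chr3:54359017-54359266 before it), and that window held none of the motifs, TATA included. These are letter matches in short windows and say nothing of binding.

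Macrophage-like cells held little of the 10 genes apart from Fn1, and much of that little lay in few cells. Of 13 macrophage-like subclusters, 3 carried another class's markers (erythrocyte, fibroblast and endothelial) and together held 388 cells (11.5%). These held 79.8% of the macrophage-like Postn reads, 76.7% of Sparc, 88.8% of Ccn2 and 49.6% of Ccn1, but 18.6% of Thbs1 and 11.1% of Fn1. Subcluster 11 alone (66 cells) carried 8 of 8 fibroblast markers and had 1228 CPM of Postn and 4288 CPM of Sparc. Without the 3 subclusters, the macrophage-like level was 36.3 CPM for Sparc, 8.30 for Postn, 5.86 for Ccn1, 17.7 for Thbs1 and 606 for Fn1. Over all subclusters 8 of the 10 genes were 2-fold higher in 1 of them than in the other macrophage-like cells, where 31.0% of 8708 genes were. The count was 4 without the 3 subclusters, and no share over all genes is available for that setting.

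Fn1 in macrophage-like cells was highest in subcluster 2 (372 cells), which carried 3 of 3 markers of the Ccr2 recruited state, cells that derive from blood monocytes. It had 4216 CPM there, 11.7-fold above the other macrophage-like cells or 9.04-fold with gaps filled, and 91% of the cells had a read. Thbs1 was also higher there, at 69.4 CPM, a ratio of 4.25 or 2.20 with gaps filled. Population by population, Fn1 was above the other macrophage-like cells in 9 of 9, whereas Thbs1 was above them in 5 and below in 4, of which 2 had no Thbs1 read in the 6 and 10 cells of subcluster 2. In subcluster 8 (236 cells, with 7 of 7 resident markers and 3 of 3 recruited ones) the 10 genes were not called higher. The share of genes 2-fold higher was 5.49% in subcluster 2.

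**Figure D4:**
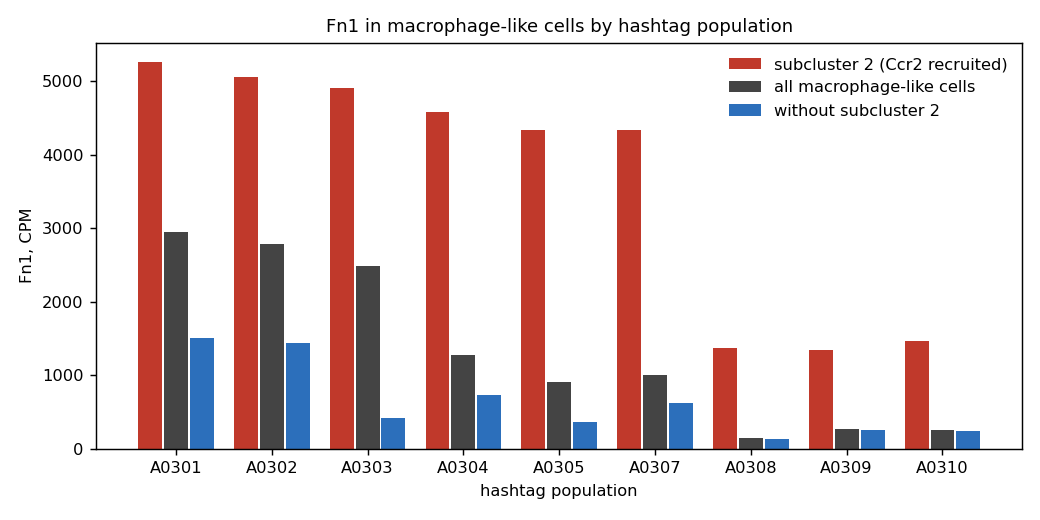
Fn1 level (CPM) in macrophage-like subcluster 2, in all macrophage-like cells and in those without subcluster 2, for each of the 9 hashtag populations; bars are single summed values with no replicate. Within subcluster 2 the level lay between 1340 and 5263 CPM over the 9 populations, which hold 6 to 87 of its cells each.

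Across the hashtag populations, Fn1 in macrophage-like cells ranged from 152 to 2955 CPM with a median of 1002, and without subcluster 2 from 139 to 1513 with a median of 417. Both ranges include subcluster 11, with fibroblast markers, which held 0.641% to 17.4% of all macrophage-like Fn1 reads of a population, those of subcluster 2 included. Its share of the values without subcluster 2 is therefore larger. Subcluster 2 made up 1.12% to 44.0% of the macrophage-like cells of a population. Among fibroblast-like cells 6 of the genes differed by over 2-fold between the highest and the lowest population, where 18.3% of 7756 genes did. Ccn3 ranged from 61.6 to 210 CPM with a median of 149, Thbs2 from 61.6 to 199 with a median of 113, and Postn from 837 to 2757 with a median of 1516. Fn1 ranged from 4380 to 8892 CPM (median 5764), Ccn2 from 117 to 241 (median 164) and Ccn5 from 33.0 to 82.9 (median 59.2). Ccn1 (321 to 431 CPM), Thbs1 (274 to 445) and Sparc (7646 to 13526) stayed within 2-fold. In macrophage-like cells 49.8% of 7861 genes differed by over 2-fold between populations, some with only 61 such cells.

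**Figure D5:**
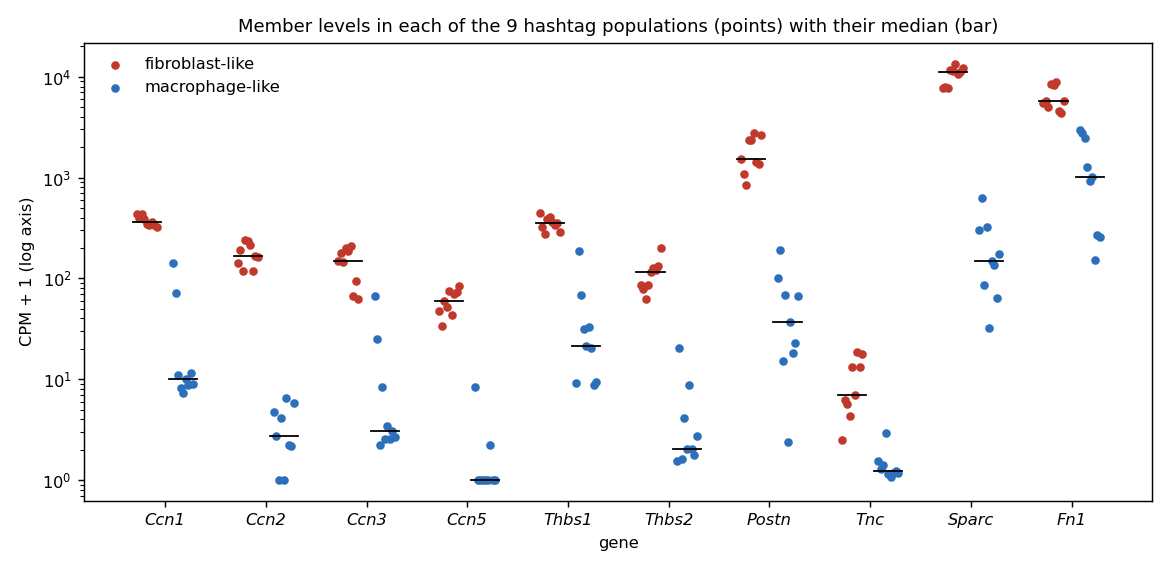
Levels of the 10 genes in each hashtag population (points) with the median over 9 populations (bar), on a log axis of CPM + 1, for fibroblast-like (left of each pair) and macrophage-like cells (right). The fibroblast-like points lie above the macrophage-like points of the same population for every gene, and the macrophage-like points of Fn1 spread from 152 to 2955 CPM.

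Other genes of the same biology were read from 6 lists. Of 24 other matricellular genes, 14 reached 20 CPM in fibroblast- or macrophage-like cells, of which 12 were 2-fold higher and 2 lower in fibroblast-like cells. Over 7767 genes the shares were 21.8% higher and 17.4% lower. Fstl1, a secreted SPARC relative, had 4317 CPM in fibroblast-like cells against 68.7 CPM in macrophage-like ones, while Sparcl1 was highest in mural-like cells at 3365 CPM. The lower genes were Spp1 (osteopontin), with 3.08 CPM in fibroblast-like cells against 325 CPM in macrophage-like ones, and Tgfbi; both were picked after their values were seen. All 17 of the tested matrix assembly and cleavage partners exceeded the macrophage-like level in fibroblast-like cells, for example Fbn1 (3178 against 53.1 CPM) and Serpinh1, a collagen chaperone (1980 against 22.4 CPM).

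Of 21 tested receptors of these proteins, 5 were higher, 8 lower and 8 within 2-fold in fibroblast-like compared with macrophage-like cells, so the higher share was near the 21.8% of all genes, beside 17.4% lower. Cd36, a thrombospondin and fatty acid receptor, had 59.9 CPM in fibroblast-like cells against 5836 CPM in macrophage-like ones, and 8977 CPM in endothelial-like cells. Itgb1, the common integrin beta chain, had 520 and 384 CPM in these fibroblast- and macrophage-like cells. Of 12 tested YAP and SRF target genes 10 were higher in fibroblast-like cells, and of 15 tested TGF-beta genes 11 were higher and 2 lower, beside the same 21.8% and 17.4% of all genes. Acta2, the smooth muscle actin, had 4959 CPM in mural-like cells and Col3a1 9939 CPM in fibroblast-like cells.

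Immediate early genes respond to tissue digestion as well as to signals. Of the 20, 14 were 2-fold higher in fibroblast-like cells than in the macrophage-like class and none lower, beside 21.8% and 17.4% of all genes. The highest class level of 13 was in lymphatic endothelial-like cells (67 cells), where Ccn1 was highest too. No share over all genes is available for that count. Fos had 6020 CPM in fibroblast-like, 11822 in lymphatic endothelial-like and 2401 in macrophage-like cells, and Egr1 had 2746, 4117 and 565 CPM in the same order. Their part in the Ccn1 and Thbs1 levels was not tested.

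The genes most alike in level over the 24 clusters were, for each member, Parva and Fhl1 for Ccn1 (Pearson r of 0.969 and 0.965), Serpinh1 and Lamb2 for Sparc (0.986 and 0.974), Itih5 and Ltbp1 for Postn (0.942 and 0.915) and Nr2f1 and Adamts12 for Thbs2 (0.933 and 0.928). For the other members they were Rbfox2 and Ppic (Ccn2), Efhd1 and Ptx3 (Ccn3), Myoc and Fbln7 (Ccn5), Wipi1 and Trip6 (Thbs1), Hecw2 and Pcdh12 (Tnc) and Fgfr1 and Ecm1 (Fn1). Fn1 had r of 0.890 and 0.847, and Ccn3 had 0.885 and 0.865. The points share 1 library, and clusters of one class weigh as much as clusters of another.

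In the genome (GRCm38, GENCODE M21) Ccn1 lies at chr3:145646976-145649981, Postn at chr3:54361109-54391037, Thbs2 at chr17:14665500-14694235 and Fn1 at chr1:71585520-71653200. Reads were counted per gene, so the values do not tell exons or isoforms apart.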

How the data were processed

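The deposited transcriptome table holds whole-number counts per gene and cell, which were treated as reads because no collapse to molecules is recorded, although the table's name carries DBEC, a count correction not described in the sources used here. Per the submitters' processing notes, cutadapt 2.10, Bowtie2 2.4.2 and R 3.6.3 were used with GRCm38; of the counter, cell calling and hashtag rule nothing is stated there. The deposited hashtag table holds counts per tag and barcode and entered 1 alternative. The hashtag in each cell name, the authors' call, set the 9 populations; 12 cell columns without one were not used.

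Cells under 200 genes or over 25% mitochondrial reads were dropped (1253 cells); 278 hashtag doublets, some of them among the dropped cells, were left out. Scrublet (expected rate 0.05) called 2.18% of all 12028 cells and 0.719% of hashtag doublets, and the 195 called cells within both limits were left out. Counts were scaled to 10000, log-transformed and clustered (Leiden, resolution 1, seed 7, 15 neighbours, 30 components, 2000 variable genes) without the 129 genes of the lists, in Python 3.11.15 with scanpy 1.11.5, leidenalg 0.10.2, igraph 0.11.9, scikit-learn 1.9.0, numpy 2.4.6, scipy 1.17.1 and pandas 2.3.3; matplotlib 3.10.9 drew the figures.

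The members and lists were chosen with earlier results of these data known. The way the marker lists name a cluster was set after the clusters were seen: 3 naming rules were tried, and the last was kept because the first left macrophage clusters unnamed; the comparisons were not run under the other 2. It asks for 50% of a class's markers, and at least 3, at 2-fold above the median cluster, with no other class leading the top 10 genes and state markers counted as a class's own. The 60% rule for subclusters carrying another class, and resolution 0.5 for mural- and endothelial-like cells, were also set after seeing the data.

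A difference was counted at 2-fold of CPM plus 1 with at least 20 CPM in 1 group; single ratios have no pseudocount. Genes named are all 10 members, the 4 highest genes of each list (a few shown as examples) and the 2 genes most alike to each member. No test was run, since each class comes from 1 pooled library; the fold calls were checked on simulated counts.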

Additional observations from a re-analysis of the deposited data

Results flagged for a closer look

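Among the 9 hashtag populations, 4 values in macrophage-like cells stood apart from the other 8 by more than Dixon's 95% critical value for 9 (0.493). The scan covered 15 sets of values in fibroblast- and macrophage-like cells, limited to these classes after the flags had been seen, and chance flags about 1 in 20 groups. Ccn1 had 141 CPM in macrophage-like cells of A0301, with 96.1% of its reads in 1 of 67 cells. Ccn3 had 66.2 CPM there, with 98.4% in 1 cell. In A0302 (61 cells), Thbs1 had 186 CPM, with 23.1% in 1 cell, and Sparc had 620 CPM, with 40.2% in 1 cell. Without the subclusters carrying another class's markers, Ccn1 had 5.72 CPM and Ccn3 1.14 CPM in A0301. In A0302 Sparc then had 27.2 CPM, while Thbs1 had 171 CPM. Of 26 further sets of values, 3 of 10 in mural-like, 4 of 8 in mesothelial-like and 0 of 8 in endothelial-like cells held such a population, each with 10 to 26 cells.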

How the results depend on the processing

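Settings tried were the mean of CPM per cell, cells thinned to 5000 reads, gaps filled, a 15% mitochondrial limit, Leiden resolution 0.5 and 2, Scrublet calls kept, hashtag doublets kept, no CPM filter, each hashtag population left out and, chosen after seeing the data, no subclusters carrying another class's markers, gaps filled in macrophage-like cells only and no single richest cell. Of 123 recomputed counts, 120 stayed within 1.5 times the reported one. Within that limit, the count of members over 2-fold between hashtag populations in fibroblast-like cells, reported as 6, ran from 4 to 9. The fibroblast subcluster count, reported as 8, ran from 6 to 9. The count of members 2-fold higher in mural-like than fibroblast-like cells became 2 with the mean per cell and with thinned cells. The macrophage subcluster count became 4 without the subclusters carrying another class's markers, with no matching share over all genes. With gaps filled, the Ccn5 ratio reversed to 1.31 for mural-like and 1.83 for endothelial-like over fibroblast-like cells, on CPM plus 1. Leaving out each population in turn gave 9 to 9 for fibroblast-like over macrophage-like cells, 1 to 1 for mural-like, 0 to 0 for mesothelial-like and 1 to 1 for endothelial-like over fibroblast-like, 7 to 8 for fibroblast and 8 to 8 for macrophage subclusters. Names follow the clusters, so class membership itself differs at resolution 0.5 and 2. Of 740 single ratios recomputed, 378 moved beyond their counting interval, which is narrow. No paired analysis was possible because no result comes from a test. Both classes of a comparison occur in every hashtag population, and the number of populations in each direction is given in place of one; the populations share 1 pooled library.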

Other observations

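Ccn3, Postn and Fn1 in fibroblast-like cells, and Fn1 in macrophage-like cells, are given here for each unassigned hashtag population, as values. Fn1 in macrophage-like cells had 2955, 2788 and 2488 CPM in A0301, A0302 and A0303. It had 1283, 913 and 1002 CPM in A0304, A0305 and A0307. It had 152, 269 and 258 CPM in A0308, A0309 and A0310. The populations are listed in the order of the hashtag names, and no label groups them. Without macrophage-like subcluster 2 the Fn1 values were 1513, 1435 and 417 CPM, then 733, 367 and 624, then 139, 256 and 236, and A0303 then lay among A0304, A0305 and A0307. They still included subcluster 11, with fibroblast markers, which held 0.641% to 17.4% of all macrophage-like Fn1 reads of a population, those of subcluster 2 included. Subcluster 11 held 14.8% in A0301 (1 cell) and 17.4% in A0302 (4 cells), where subcluster 2 held 68.5% and 67.7%. Its share of the values without subcluster 2 is therefore much larger in these 2 populations. In fibroblast-like cells Ccn3 had 149, 176 and 145 CPM in the first 3 populations, 198, 188 and 210 in the next 3 and 65.6, 92.1 and 61.6 in the last 3. Postn in the same order had 1516, 1078 and 837 CPM, then 2330, 2352 and 2757, then 1422, 1350 and 2639. Fn1 had 5487, 5764 and 4994 CPM, then 8468, 8329 and 8892, then 4544, 4380 and 5775. The subcluster led by C4b and Mdk, in which Ccn3 had 2.66 CPM, made up 5.04% to 11.7% of the fibroblast-like cells in A0301 to A0307 and 38.3% to 43.2% in A0308 to A0310. No label gives the diet of any hashtag.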
